A study of Mus musculus with 32 samples.

Results

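The 9 genes described here encode proteins of the myelin sheath or enzymes that make its lipids: Mbp, Mag, Mog, Mobp, Cnp, Fa2h, Ugt8a, Cldn11 and Mal. Their probes were taken from 2-colour Agilent 44K mouse arrays wherever the name on the array, read as a current symbol or a synonym, was one of these genes. The choice gave 19 probes for the 9 genes, out of 19693 named genes and 41174 non-control probes on the array. Mpv17 and Faah carry a listed synonym of a member but were on the array under their own names, and their 3 probes were left out.

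Myelin is the multilayered membrane that oligodendrocytes wrap around axons in the spinal cord. Mbp and Mobp hold its cytoplasmic faces together, Mag and Mog are immunoglobulin-type proteins of the innermost and the outermost wraps, and Cldn11 builds the tight junctions between wraps. Cnp is an enzyme of the cytoplasmic channels of the sheath, Mal is a lipid-raft protein, and Fa2h and Ugt8a make the hydroxylated galactolipids that give myelin its lipid character. Neurons do not form myelin.

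The arrays compared transgenic with littermate control mice, all female. Motor neurons of the lumbar anterior horn, or the glial cells around them, were captured by laser from sections stained with cresyl violet, 500 cells per mouse, and their RNA was amplified before labelling. B6SJL-Tg(SOD1-G93A)1Gur mice, which carry a mutant superoxide dismutase transgene that causes motor neuron disease, and B6SJL controls were 8 weeks old. B6D2F1-Tg(TAU-P301L) mice, transgenic for a mutant of the microtubule protein tau, and B6D2F1 controls were 16 weeks old, so transgene, strain and age differ together between the models, and the labels used here name neither the promoter nor the line of the tau transgene. The 4 comparisons are called SODmn and SODgl (SOD1-G93A motor neurons and glia) and TAUmn and TAUgl (TAU-P301L motor neurons and glia). Each had 4 littermate pairs, with 2 dye-swapped arrays for every pair, so n = 4 pairs per comparison. The labels used here do not say whether motor neurons and glia came from the same mice.

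On 1 array the spots do not match their listed positions. On the array of SODmn pair 3 with the transgenic extract in Cy3, the green log2 intensity had a correlation of -0.0039 with the mean of the other 31 arrays at the listed positions, and of 0.528 when the spots were read 2 rows off. The other 31 arrays gave 0.613 to 0.972 at the listed positions and at most 0.0046 read 2 rows off. Many results that include SODmn are therefore given with and without pair 3. The pair stays in the values unless it is said to be left out, so a value given only once includes it. The pairs SODgl 2 and TAUgl 1, which share a scan session, also stood apart: the scanner software marked 4.50% to 17.35% of their spots as outliers, against at most 0.737% on any other array. The ratios of the 2 dye-swapped arrays of a pair, both turned to transgenic over control, correlated between -0.806 and -0.404 in glia pairs 1 and 2 of both models and between -0.197 and 0.539 in all other pairs. Averaging both arrays of a pair cancels a dye effect only where it is equal on both.

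**Figure D1:**
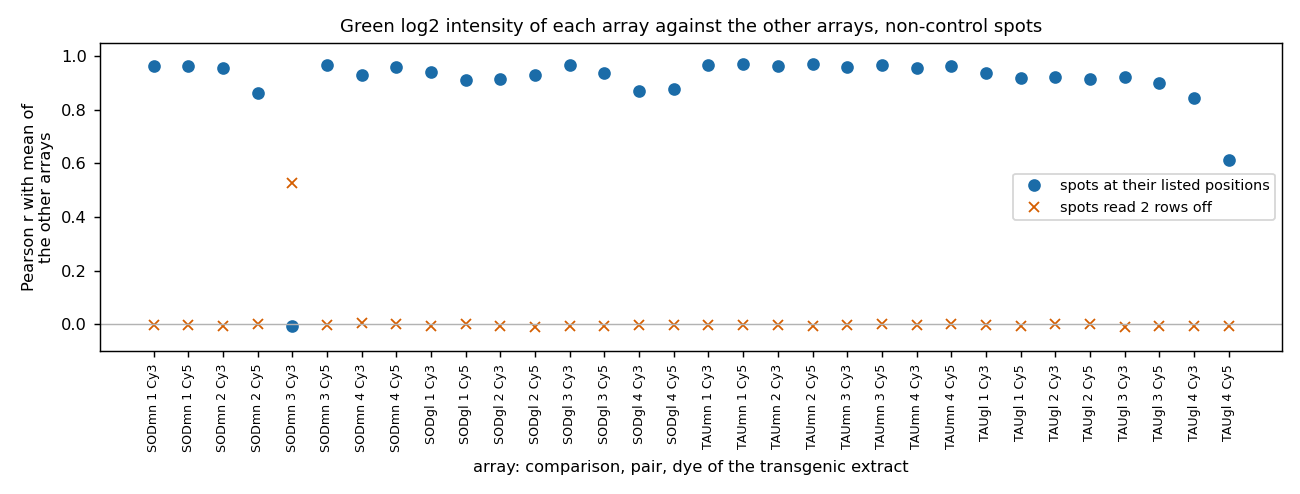
Pearson correlation of the green log2 intensity of each array with the mean of the other 31 arrays over non-control spots, with spots at their listed positions (circles) and read 2 rows off (crosses), by comparison, pair and dye of the transgenic extract. The array of SODmn pair 3 with the transgenic extract in Cy3 has -0.0039 at the listed positions and 0.528 read 2 rows off, while the other 31 arrays have 0.613 or more at the listed positions.

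Of the 9 genes, 7 have a promoter window in the RefSeq table used here (build GRCm38.p6), with 9 windows between them. The 250 bases before the start of Mag, Mobp and Cnp are shown because these are the members with a SOX-type match in the window. Capitals mark matches, on either strand, to the SOX-type motif ACAAAG or ACAATG and to the MYRF-type motif CTGGCAC or CTGGTAC; SOX10 and MYRF are transcription factors of the oligodendrocyte lineage. The windows are chr7:30914864-30915113 on the minus strand for Mag, chr9:120149492-120149741 on the plus strand for Mobp and chr11:100574689-100574938 on the plus strand for Cnp, each written 5′ to 3′ along the gene.
Mag: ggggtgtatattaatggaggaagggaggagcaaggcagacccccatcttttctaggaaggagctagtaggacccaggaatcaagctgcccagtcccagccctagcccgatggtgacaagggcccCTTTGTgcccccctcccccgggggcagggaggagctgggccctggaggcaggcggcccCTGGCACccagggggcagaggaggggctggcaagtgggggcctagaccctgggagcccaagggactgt
Mobp: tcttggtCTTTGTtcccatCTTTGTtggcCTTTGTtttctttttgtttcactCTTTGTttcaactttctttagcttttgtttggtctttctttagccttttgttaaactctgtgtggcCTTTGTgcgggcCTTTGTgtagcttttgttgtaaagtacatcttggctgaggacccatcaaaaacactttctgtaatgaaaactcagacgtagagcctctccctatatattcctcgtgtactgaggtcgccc
Cnp: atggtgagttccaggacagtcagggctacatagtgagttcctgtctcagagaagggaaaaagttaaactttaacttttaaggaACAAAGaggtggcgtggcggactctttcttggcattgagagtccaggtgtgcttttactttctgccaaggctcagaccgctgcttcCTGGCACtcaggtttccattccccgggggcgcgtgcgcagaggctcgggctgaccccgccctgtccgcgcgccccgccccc
The Mobp window held 6 SOX-type matches, the farthest 243 bases before the start, and no MYRF-type match. The Mag window held a SOX-type match 126 bases and a MYRF-type match 68 bases before the start, and the Cnp window held them 167 and 81 bases before it. Over all 32851 windows of the same length, 25.2% held a SOX-type match and 5.93% a MYRF-type match. Among the members' 9 windows, 4 held a SOX-type and 4 a MYRF-type match, but 2 of the 3 Mag windows overlap and share theirs. The windows of Cldn11, Mal and Ugt8a held neither, and that of Mog held a MYRF-type match alone. A match is a description of the letters and not a measured binding site.

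The probes of one gene differed in how often they were detected, that is, well above background on both arrays of an extract. Counts of detected extracts include both extracts of SODmn pair 3, which were read in part on the misplaced array. At the brightest probes, 2 of 9 members were detected in its control extract and 7 of 9 in its transgenic extract. Coordinates are those of build mm8 in the scanner files. The single Cnp probe (chr11:100397393-100397452) was detected in 32 of 32 extracts and the single Cldn11 probe (chr3:31354878-31354937) in 30. Fa2h (chr8:114232074-114232133) was detected in 28. Mag probe A_51_P435428 (chr7:30607972-30608031) was detected in 30 extracts and A_52_P375021 (chr7:30615779-30615838) in 17. Mobp probe A_52_P384465 (chr9:120030081-120030140) was detected in 31 extracts, A_51_P291224 (chr9:120016586-120016645) in 15 and A_52_P267600 (chr9:120024357-120024416) in 4. The 3 probes of Mbp, on chromosome 18, were detected in 31 (A_51_P349205), 29 (A_52_P604195) and 24 (A_52_P329451) extracts. Mal probe A_51_P499071 (chr2:127324671-127324698) was detected in 28 extracts and A_52_P562661 (chr2:127325178-127325237) in 15. In each of Mbp, Mag, Mobp, Mal and Ugt8a the probe nearest the 3′ end was the one detected most often. These coordinates were not set against exons here.

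Both remaining genes were at the limit of detection. Ugt8a, which adds galactose to ceramide, was detected in 13 extracts with probe A_52_P439263 (chr3:125858099-125858158) and in 0 and 1 with its other 2 probes. The Mog probe A_52_P85040 (chr17:36628515-36628574) was detected in 0 of 32 extracts, also in glia. Of its other 2 probes, which carry the older name B230317G11Rik on the array, A_52_P169614 was detected in 0 extracts and A_52_P1091913 in 3, and the latter lies on the strand opposite to Mog. No level of Mog can be given from these arrays beyond not well above background.

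Of the 7 members tested at their brightest probe, 3 were lower in control motor neurons than in control glia, and 0 were higher. Mag, Mbp and Mobp were the 3, at 3.4-fold, 1.93-fold and 1.91-fold lower in the motor neuron extracts, while Cnp, Cldn11, Fa2h and Mal did not pass the test. The comparison used 8 control extracts of each cell type in a limma fit on normalized log2 intensity with the colony as a term. Across all 16084 probes tested, 10.7% were called lower and 27.8% higher in motor neurons at a Benjamini-Hochberg adjusted p under 0.05, and the median difference over those probes was 0.12. Without SODmn pair 3, 1644 of the 16084 were called lower and 5475 higher, with a median of 0.14. Motor neuron arrays were read with version 8.5.1.1 of the scanner software and glia arrays with version 9.5.1.1, per the file headers. No scan session held arrays of both cell types. Cell type, software version and scan session therefore cannot be told apart. In a bulk capture, fewer cells of a type and less RNA per cell cannot be told apart either.

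The capture itself was checked with marker lists read at the brightest probe of each gene. Among the 13 markers of motor neurons, 7 had higher levels in the motor neuron captures, among them Calca by 2.29, Snap25 by 1.86, Nefm by 1.67 and Ache by 0.55 on the log2 scale, and Mnx1 was lower by a difference of -0.36. Of 10 astrocyte markers, 5 were lower, with Mlc1 at -1.24, Gjb6 at -1.14, Glul at -1.61, Aldoc at -0.88 and Slc1a3 at -0.59 (Mnx1 and Slc1a3 were named after their values were seen). Without SODmn pair 3, 9 of the 13 were higher. Both kinds of marker were above background in both captures: 9 to 14 of 14 motor neuron markers and 6 to 12 of 12 astrocyte markers were detected in each control motor neuron extract other than SODmn 3, and 7 to 13 and 6 to 12 in each control glia extract. SODmn control extract 3 had 5 motor neuron and 0 astrocyte markers detected.

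Mag, the adhesion protein of the innermost wrap, had the largest difference among the member probes tested. Its brightest probe ran from 10.18 to 10.74 in 7 control motor neuron extracts, with SODmn extract 3 at 7.99, and from 11.57 to 12.2 in the 8 glia extracts (log2 intensity). The groups did not overlap, but the share of all probes tested that separate in this way was not counted. The difference was -1.76 (SE 0.294, limma adjusted p = 0.00055), and -1.46 (SE 0.111, adjusted p = 3.3e-06) without SODmn pair 3, a 2.75-fold difference. The second Mag probe did not show it, with means of 6.34 ± 0.07 and 6.32 ± 0.20 (SD, n = 8 each), a difference of 0.021 and an adjusted p of 0.86. That probe was detected in 4 control motor neuron and 3 control glia extracts, near its floor.

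Mbp, a major protein of the compact sheath, gave different directions at its 3 probes. A_51_P349205 had a lowest, median and highest value of 11.65, 11.80 and 12.01 in 6 motor neuron extracts (those of SODmn pairs 3 and 4 were lost to outlier marks) and of 11.94, 12.70 and 13.33 in 8 glia extracts. Only TAUgl extract 2, at 11.94, fell within the motor neuron range. The difference was -0.95 (SE 0.193, adjusted p = 0.0025). A_52_P329451 gave -0.47 (SE 0.095, adjusted p = 0.0018), with 6.28 to 6.60 in motor neurons and 6.56 to 7.35 in glia. A_52_P604195 ran the other way, at 7.18 ± 0.31 in motor neurons and 6.81 ± 0.33 in glia (SD, n = 8 each), a difference of 0.37 (adjusted p = 0.055). Without SODmn pair 3 that difference was 0.43 and was called (adjusted p = 0.027). The array names both A_51_P349205 and A_52_P329451 by one transcript and A_52_P604195 by another, and whether they read different Mbp transcripts was not tested.

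Mobp, a small basic protein of compact myelin, ran from 8.36 to 9.26 in 7 motor neuron extracts, with a median of 8.79, and from 8.26 to 10.76 in 8 glia extracts, with a median of 9.80. Of the 8 glia extracts, 7 lay above every motor neuron extract, and TAUgl extract 4, at 8.26, lay below them. The difference was -0.93 (SE 0.267, adjusted p = 0.014), with an adjusted p of 0.011 without SODmn pair 3. Its second probe, A_51_P291224, gave 0.22 with an adjusted p of 0.16, and 0.13 with an adjusted p of 0.28 without SODmn pair 3.

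Cnp, Cldn11, Fa2h and Mal also overlapped between cell types. Cnp was 7.67 ± 0.42 in motor neurons and 8.03 ± 0.66 in glia (SD, n = 8 each), a difference of -0.37 (adjusted p = 0.26). TAUgl extract 1 was the lowest glia value for Cnp at 6.51, and without it the difference was -0.58 with an adjusted p of 0.019, so 1 extract decided that call. Leaving out SODmn pair 3 instead gave -0.24 (adjusted p = 0.42). Cldn11 differed by -0.15 (adjusted p = 0.47), Fa2h by 0.072 (adjusted p = 0.68) and Mal by -0.047 at its brighter probe (adjusted p = 0.76). Without SODmn pair 3 they differed by -0.082, 0.11 and -0.020 (adjusted p of 0.67, 0.51 and 0.89). For these 3 the standard errors were 0.156, 0.132 and 0.111, so small differences are not excluded by these data. The second Mal probe, A_52_P562661, gave 0.19 in the same limma fit (adjusted p = 0.089), and 0.18 (adjusted p = 0.11) without SODmn pair 3.

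**Figure D2:**
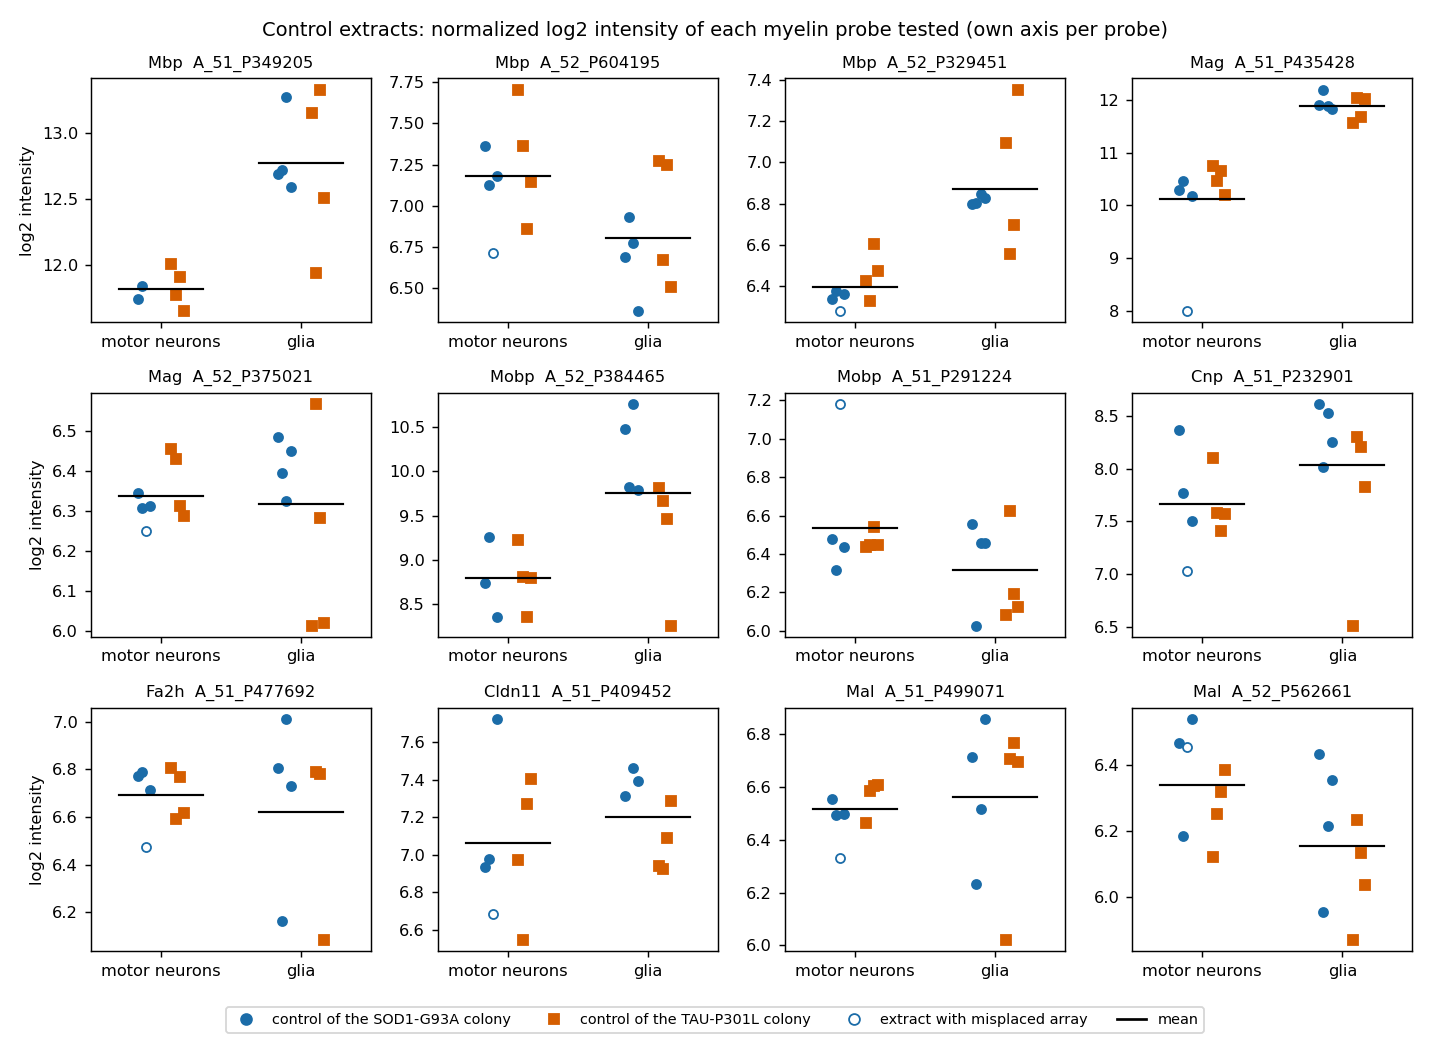
Normalized log2 intensity of each member probe tested between cell types in the 16 control extracts (circles, littermates of SOD1-G93A; squares, littermates of TAU-P301L; open circle, the extract with the misplaced array; line, mean), with an axis of its own for each probe. Mag A_51_P435428 separates the cell types completely, from at most 10.74 in motor neurons to at least 11.57 in glia, while Fa2h and Mal overlap. The share of all probes that separate was not counted.

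The difference between cell types was called with some choices and not with others. In the transgenic extracts Mag differed by -1.64 (adjusted p = 0.002), Mobp by -1.26 (adjusted p = 0.0098) and Mbp A_52_P329451 by -0.44 (adjusted p = 0.02), while Mbp A_51_P349205 differed by -0.62 (adjusted p = 0.13). With the processed signals of the scanner software scaled to the 75th percentile, which moved the median of all probes from 0.12 to 0.30, Mag gave -1.21 (adjusted p = 0.11), Mobp -0.34 (adjusted p = 0.53) and Mbp A_51_P349205 -0.025 (adjusted p = 0.96), none of them called, while Mbp A_52_P329451 gave -0.98 (adjusted p = 0.0018) and Mbp A_52_P604195 rose to 1.41 (adjusted p = 0.0079). With that scaling and without SODmn pair 3 and the pairs SODgl 2 and TAUgl 1, Mag was called at -0.84 (adjusted p = 0.0084). The TAU-P301L controls alone called Mag at -1.31 (adjusted p = 0.015) but not Mobp, at -0.50 (adjusted p = 0.30), or Mbp A_51_P349205, at -0.90 (adjusted p = 0.061).

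Other myelin genes showed a like split. Of 26 other myelin proteins tested, 8 were lower in control motor neurons and 0 higher, with a median difference of -0.17, against 1524 lower and 3357 higher of 13030 genes with a median of 0.11. Among these 8 were Evi2a (-0.98), Ndrg1 (-1.15), Septin4, a septin of the sheath (-0.90), and Tspan2, a tetraspanin of oligodendrocytes (-1.33). Of 7 oligodendrocyte lineage genes, 4 were lower, the transcription factors Nkx6-2 (-1.37), Sox10 (-0.92), Olig1 (-0.71) and Olig2 (-0.49). The 17 lipid enzymes did not share the direction: Ugcg, which makes glucosylceramide, was higher by 0.82, Degs1, a ceramide desaturase, by 0.69 and Psap, the saposin precursor, by 0.65, and only Gltp, a glycolipid transfer protein, was lower (-0.38). Without SODmn pair 3 the counts were 9 of 26, 4 of 7 and 4 higher against 1 lower of 17.

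No member was called in any transgenic comparison, nor was any other probe. The share called at a Benjamini-Hochberg adjusted p under 0.05 in the limma fit was 0% of 16679 probes in SODmn, 0% of 12223 in SODgl, 0% of 14091 in TAUmn and 0% of 10221 in TAUgl. At an unadjusted p under 0.05 there were 1613, 1800, 499 and 1267 probes. Of the 19 member probes, 13 passed the filter in at least 1 comparison. A missed threshold does not show that the members were unaffected.

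In TAU-P301L motor neurons the members moved as a block at their brightest probes, but in opposite directions in different pairs. All 7 members tested had a log2 ratio below 0 in pair 1 (median -0.73) and in pair 2 (median -0.31). All 7 were above 0 in pair 3 (median 0.55), and 5 of 7 in pair 4 (median 0.12). The medians of all probes tested lay between -0.0065 and 0.0017 in the same 4 pairs. The count below 0 in pairs 1 and 2 and above 0 in pair 3 was the same with the scanner software's own ratios, with median centring, with a normexp offset of 10, with outlier-marked spots kept and in the authors' deposited table, while pair 4 varied from 4 to 7 of 7.

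Mbp at its brightest probe had log2 ratios of -0.73, -0.87, 1.06 and 0.31 in TAUmn pairs 1 to 4. The mean was -0.059 ± 0.91 (SD, n = 4; SE 0.282 in the fit, adjusted p = 0.998). Mobp had -1.15, -0.77, 1.12 and -0.089, and Mag had -0.98, -0.49, 0.29 and 0.16. For the 3 structural proteins pairs 1 and 2 were low and pair 3 high, and pair 4 lay between.

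Cnp had -0.73, -0.31, 0.55 and 0.25, and its own values were the group medians in pairs 2 and 3. Cldn11 had -0.32, -0.051, 0.68 and -0.10, with pair 3 alone above 0. Fa2h, which hydroxylates the fatty acids of galactolipids, had -0.26, -0.079, 0.22 and 0.12, and Mal had -0.27, -0.18, 0.11 and 0.008. The Fa2h and Mal probes had TAUmn control means of 6.70 and 6.565, against 11.84 for Mbp at its brightest probe. The offset added in background correction compresses ratios at such low intensity. The lipid enzyme and the raft protein followed the same signs over a smaller range. The dimmer probes of Mbp did not: A_52_P604195 had 0.094, -0.093, 0.075 and 0.044, and A_52_P329451 had -0.14, 0.13, 0.10 and 0.077. The second Mag probe, A_52_P375021, had -0.22, 0.022, 0.092 and 0.069, with pair 2 above 0. Mobp A_51_P291224 had -0.084, 0.081, -0.061 and 0.028, with pair 2 above 0 and pair 3 below it. These 2 probes were detected in 4 and 5 of the 8 TAUmn extracts.

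Both dye-swapped arrays carried these signs. In pair 1 all 7 members were below 0 on both arrays, and in pair 3 all 7 were above 0 on both. Over all probes the ratios of the 2 arrays correlated at 0.056 in pair 1 and -0.197 in pair 3. The share of all genes with 1 sign on both arrays was not counted, so this cannot be called particular to the members. In pair 2, 5 of 7 were below 0 on both and 2 differed between arrays. In pair 4, 3 were above 0 on both, 1 below on both and 3 differed. No pair of the other 3 comparisons had all its members on one side on both arrays.

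**Figure D3:**
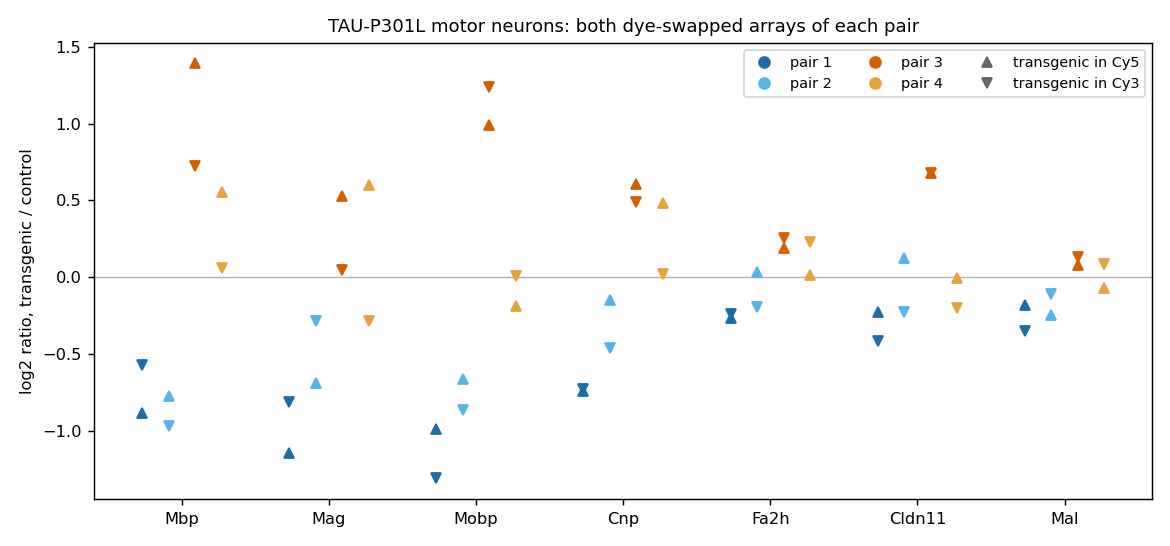
Log2 ratio, transgenic over control, of the brightest probe of 7 members on each array of the 4 TAU-P301L motor neuron pairs (colour, pair; triangle up, transgenic extract in Cy5; triangle down, in Cy3). Pair 1 lies below 0 and pair 3 above 0 on both arrays for all 7 genes. The share of all genes with 1 sign on both arrays was not counted.

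For these members the spread lay more in the transgenic than in the control extracts. Mbp in the 4 TAUmn controls was 12.01, 11.77, 11.91 and 11.65 (log2 intensity, SD 0.156), and in the 4 transgenic extracts 11.28, 10.90, 12.97 and 11.96 (SD 0.908). Mag had an SD of 0.245 in controls and 0.512 in transgenic extracts, Mobp 0.353 and 0.673, Cldn11 0.381 and 0.664, Fa2h 0.107 and 0.217, and Mal 0.069 and 0.228. Cnp was nearly level at 0.306 and 0.334. The transgenic SD was thus the higher for all 7, a difference in spread that was not tested. The share of all genes with a higher transgenic SD was not counted, so this cannot be called particular to the members.

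Pairs 1 and 2 were scanned in one session and pairs 3 and 4 in another, so the split follows the scan session. Within the first session the mean log2 ratio was -0.80 for Mbp, -0.96 for Mobp, -0.73 for Mag and -0.52 for Cnp, and within the second it was 0.68, 0.51, 0.22 and 0.40. Fa2h went from -0.17 to 0.17, Cldn11 from -0.19 to 0.29 and Mal from -0.22 to 0.057. SODmn pairs were scanned in the same 2 sessions, with pairs 1 and 2 in the first. The members' medians there were 0.26, 0.022, 0.14 and -0.11 in pairs 1 to 4, and pair 3 includes the misplaced array. The share of red spots well above background was 37.5% to 56.7% on the TAUmn arrays of the first session and 16.2% to 27.9% on those of the second. The part of scan session and signal in the split was not tested.

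Markers of other cells moved with it in part. Other myelin proteins had medians of -0.28, -0.19, 0.22 and 0.044 in TAUmn pairs 1 to 4, with 7 of 26, 5 of 26, 19 of 24 and 16 of 26 above 0. Oligodendrocyte lineage genes had -0.28, -0.14, 0.21 and -0.024. The 10 astrocyte markers were level in pair 1 (median 0.013), all below 0 in pair 2 (-0.45), all above 0 in pair 3 (0.48) and at -0.15 in pair 4. The 11 motor neuron markers were at 0.19, 0.22, -0.17 and 0.23. Over the 7 control and 7 transgenic motor neuron extracts outside SODmn pair 3, the list median ranged from 6.65 to 7.16 and from 6.56 to 7.33 for astrocyte markers and from 7.41 to 8.67 and from 7.19 to 8.35 for motor neuron markers (log2 intensity). Their part in the myelin ratios was not tested.

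**Figure D4:**
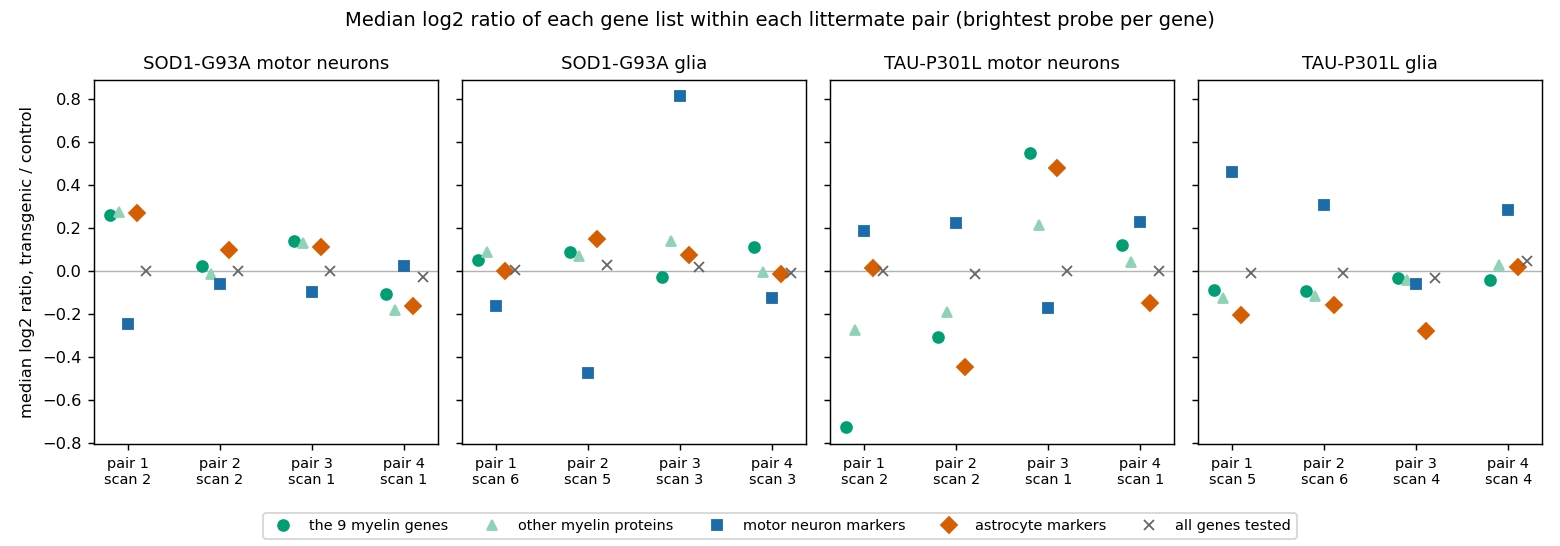
Median log2 ratio, transgenic over control, of each gene list within each littermate pair, read at the brightest probe of each gene tested (large circles, the myelin genes; triangles, other myelin proteins; squares, motor neuron markers; diamonds, astrocyte markers; crosses, all genes tested), with the scan session under each pair. In TAU-P301L motor neurons the myelin genes go from -0.73 and -0.31 in pairs 1 and 2 to 0.55 and 0.12 in pairs 3 and 4, while all genes stay at 0.

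In SOD1-G93A motor neurons the members were mostly a little above 0. Of 7 tested, 6 had a mean log2 ratio above 0, with a median of 0.13 against 0.0002 over all genes. Without SODmn pair 3, 7 of 8 were above 0 (median 0.11), where Mbp entered with a value in 2 pairs. The direction held in pair 1 and not in pair 4, where 3 of 7 were above 0. With median centring in place of loess, pair 4 had 0 of 7 above 0 (Mbp has no value there). The members' median was then -0.57, against -0.14 over all probes tested. The 11 astrocyte markers had medians of 0.27, 0.099, 0.11 and -0.16 in SODmn pairs 1 to 4, the same signs as the members' medians. The 14 motor neuron markers had -0.25, -0.058, -0.095 and 0.023, the opposite signs, and 3 of 14 had a mean above 0 (median -0.21; -0.14 without pair 3). The part of these markers in the members' ratios was not tested.

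Mag had log2 ratios of 0.64, -0.065, 0.45 and 0.31 in SODmn, a mean of 0.33 ± 0.30 (SD, n = 4; adjusted p = 0.55), and 0.29 without pair 3 (adjusted p = 0.72). Mobp had 0.98, -0.25 and -0.57 in pairs 1, 2 and 4, with no value in pair 3. The brightest Mbp probe had 0.36 and -0.15 in pairs 1 and 2 only. The pairs thus differed in sign for both compact-myelin proteins.

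Ugt8a, tested here at 5 detected extracts of 8, had 0.53, 0.086, 0.14 and -0.11, with a mean of 0.16 (adjusted p = 0.51), or 0.17 (adjusted p = 0.60) without pair 3. Fa2h was above 0 in all 4 pairs, at 0.24, 0.084, 0.14 and 0.036 (mean 0.13 ± 0.09, SD, n = 4; adjusted p = 0.56, and 0.70 without pair 3). Cnp had -0.14, 0.49, 0.13 and 0.037, Cldn11 0.26, -0.053, 0.43 and -0.13, and Mal -0.017, 0.022, 0.093 and -0.11. Cldn11 had a mean of 0.13 with pair 3 and 0.025 without it. In that pair its log2 ratio was 0.072 on the misplaced array and 0.78 on the other.

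In SOD1-G93A glia, Fa2h was the member nearest to a call. Its log2 ratios were 0.086, 0.38, 0.24 and 0.28, all above 0, with a mean of 0.24 ± 0.12 (SD, n = 4), a 1.185-fold ratio on a scale that the added offset compresses. The unadjusted p was 0.0032 and the adjusted p 0.11 in the limma fit, and over the alternatives with a test the mean ranged from 0.20 to 0.58 and the adjusted p from 0.085 to 0.49. Pair 2 lies in the scan session with many outlier marks; without it the mean was 0.20 (adjusted p = 0.31).

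The probes of Mbp differed from each other here too. A_52_P604195 had -0.018, 0.15, 0.41 and 0.28 in SODgl (mean 0.21, adjusted p = 0.12), and A_51_P349205 had 0.017, 0.04, -0.091 and -0.55 (mean -0.15, adjusted p = 0.89). In pairs 3 and 4, whose dye-swapped arrays correlated above 0, the means were 0.35 and -0.32. The probe A_52_P604195 was below 0 in all 4 SODmn pairs, at -0.23, -0.13, -0.23 and -0.12 (mean -0.18, adjusted p = 0.45; -0.16 and 0.54 without pair 3).

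Mobp split the glia pairs, at -0.13, 1.09, -0.14 and 0.95 (mean 0.44 ± 0.67, SD, n = 4; adjusted p = 0.66). Mag had -0.28, 0.087, -0.15 and 0.51, and Cnp had 0.13, 0.77, 0.12 and -0.088. Neither was on one side of 0. Cldn11 had -0.076, 0.021 and 0.27 in pairs 1, 3 and 4, and Mal had 0.12, -0.018, 0.16 and -0.11. Motor neuron markers in the SODgl pairs had medians of -0.16, -0.47, 0.81 and -0.12, with 8 of 9 above 0 in pair 3, where the members' median was -0.026. With median centring the members' medians were 0.30, 0.62, 0.56 and 0.099 in the SODgl pairs, against 0.095, 0.023, 0.19 and -0.058 over all probes tested. The sign in pair 3 thus depended on the centring. The part of the motor neuron markers in the members' ratios was not tested.

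In TAU-P301L glia the members were a little below 0 in every pair, with medians of -0.087, -0.094, -0.033 and -0.041, and 1 of 7 had a mean above 0. The medians of all probes tested were -0.0066, -0.0089, -0.032 and 0.046 in these pairs, so pair 3 did not stand apart. With median centring the medians were 0.037, -0.075, 0.25 and 0.35, against 0.054, 0.013, 0.13 and 0.083 over all probes tested. In pairs 3 and 4 the members then lay above all probes, so the direction there depended on the centring. Mbp A_51_P349205 had -1.24, 0.25, -0.29 and -0.48 (mean -0.44 ± 0.62, SD, n = 4; adjusted p = 0.59). The lowest value came from pair 1, one of the pairs with many outlier marks. Mag was below 0 in all 4 pairs, at -0.16, -0.55, -0.093 and -0.054 (mean -0.21, adjusted p = 0.72), and Mobp ran from -0.89 in pair 1 to 0.68 in pair 4. The motor neuron markers had medians of 0.46, 0.31, -0.061 and 0.28 and the 10 astrocyte markers -0.20, -0.16, -0.28 and 0.017 in these pairs, and their part in the members' ratios was not tested.

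**Figure D5:**
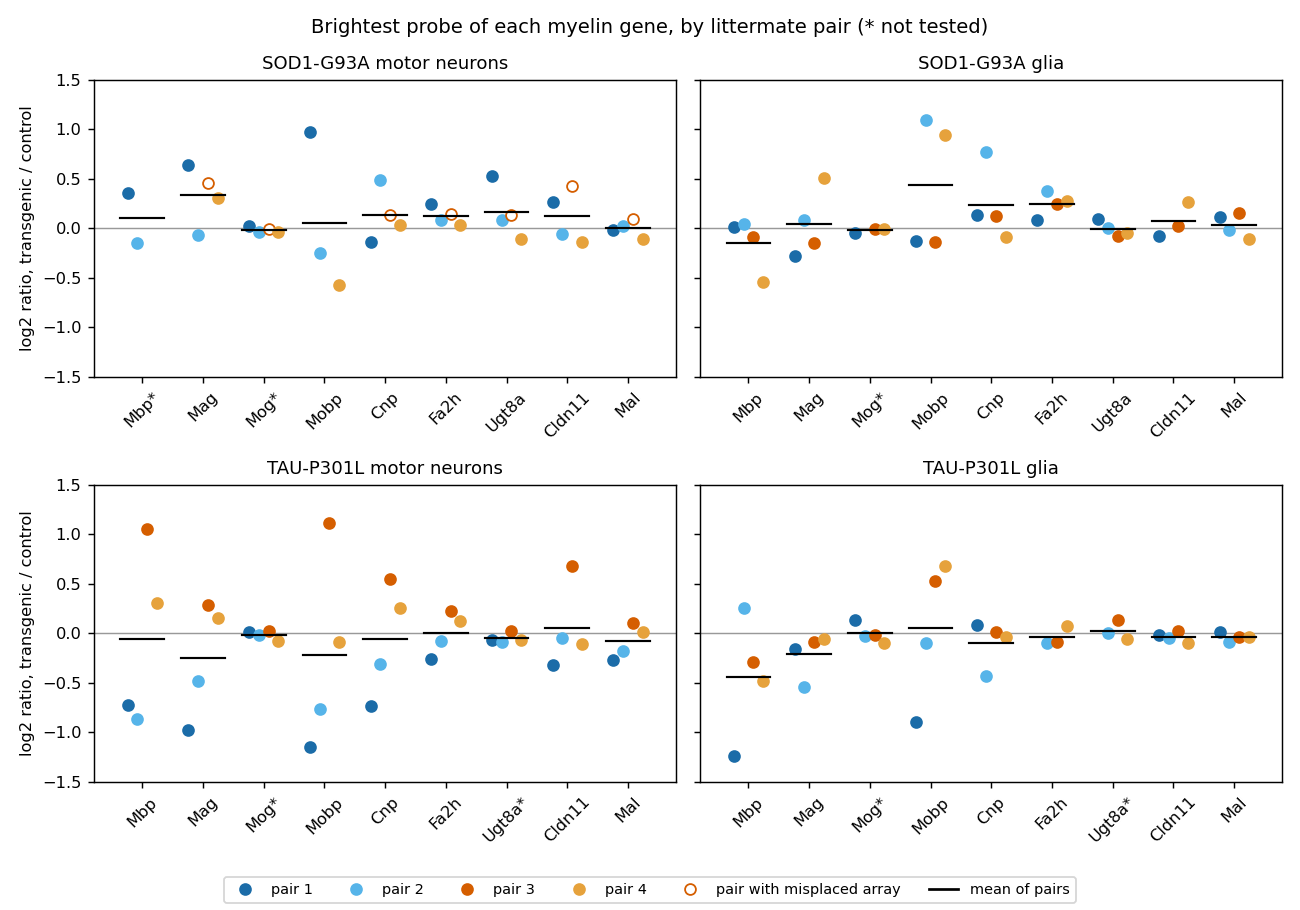
Log2 ratio, transgenic over control, of the brightest probe of each of the 9 genes in each littermate pair of the 4 comparisons (circles, pairs; open circles, the pair with the misplaced array; line, mean of the pairs; an asterisk marks a gene that was not tested in that comparison). Values in TAU-P301L motor neurons run from -1.15 (Mobp, pair 1) to 1.12 (Mobp, pair 3), and Fa2h is above 0 in all pairs of both SOD1-G93A comparisons.

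No member's effect passed the test for a difference between cell types or between models, and neither did any other probe. The share of probes called was 0% of 11316 for the SOD1-G93A effect in motor neurons minus glia, 0% of 9570 for the TAU-P301L effect in motor neurons minus glia, 0% of 13615 for the SOD1-G93A minus the TAU-P301L effect in motor neurons and 0% of 9583 for the same in glia. At an unadjusted p under 0.05 the limma fit had 1535, 481, 1452 and 628 probes. Mbp A_52_P604195 had the smallest p among the members, a motor neuron minus glia difference in the SOD1-G93A effect of -0.39 (SE 0.086, unadjusted p = 0.00046, adjusted p = 0.10), and -0.37 (adjusted p = 0.28) without SODmn pair 3. Mag differed between the models in motor neurons by 0.59 (SE 0.252, adjusted p = 0.43), and by 0.55 (adjusted p = 0.50) without that pair. Fa2h differed between the models in glia by 0.28 (SE 0.105, adjusted p = 0.64). In glia all 7 members tested had a larger log2 ratio in SOD1-G93A than in TAU-P301L, by 0.073 to 0.39, against 4383 of 8415 genes. In the same difference 9 of 10 astrocyte markers (median 0.22) and 1 of 9 motor neuron markers (median -0.24) were above 0, and their part in the members' difference was not tested.

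The listed myelin genes gave no calls either. Of the other myelin proteins, 0 of 26 in SODmn, 0 of 26 in SODgl, 0 of 26 in TAUmn and 0 of 24 in TAUgl passed the adjusted threshold, where the shares over all probes were also 0%. In SODmn the 2 with the smallest p were Klk6, a protease of oligodendrocytes (0.39, adjusted p = 0.53; 0.48 and 0.55 without pair 3), and Pmp22, a protein of peripheral myelin (-0.56, adjusted p = 0.63; -0.57 and 0.75 without pair 3). In TAUmn, Sirt2, a deacetylase, was at -0.15 (adjusted p = 0.998). In TAUgl, Ndrg1 was below 0 in all 4 pairs (mean -0.63, adjusted p = 0.31). Among lipid enzymes, Degs1 was at -0.34 in SODmn (adjusted p = 0.36; -0.42 and 0.24 without pair 3) and 0.28 in TAUmn (adjusted p = 0.998).

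The members resembled each other across pairs. Pearson correlations between the log2 ratios of 2 members over the 16 pairs, which share arrays and normalization, ran from 0.36 (Mobp with Mal) to 0.76 (Mobp with Cldn11). Among 7062 genes with values in all 4 comparisons, the 8 non-members whose ratios were most like the mean of 7 members were Cmtm5 (r = 0.866), Kremen1 (0.861), Scrg1 (0.858), Olfr1341 (0.849), Rcbtb1 (0.848), Gna12 (0.843), Evi2a (0.842) and Tmcc3 (0.841). The median r of all other genes was 0.034, and without SODmn pair 3 the 8 had 0.835 to 0.869. Correlations over the 16 pairs rest in good part on the TAUmn pairs, where the mean of the members went from -0.63 in pair 1 to 0.57 in pair 3, the lowest and the highest of the 16.

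The mouse probes of the transgenes showed no call. Sod1 A_51_P367381 had a mean log2 ratio of -0.074 in SODmn and -0.10 in SODgl, and the 3 Mapt probes had -0.17, 0.18 and -0.10 in TAUmn. The array was designed for mouse transcripts, so these probes are no check of a human transgene.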

How the data were processed

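Captured motor neurons and glia were hybridised on 32 two-colour arrays of 43790 spots. Per the file headers, the scanner files deposited by the authors give linear spot intensity from Agilent Feature Extraction, version 8.5.1.1 for motor neurons and 9.5.1.1 for glia; the submitters' processing notes name only 8.5.1.1. The authors' deposited value table holds log10 ratios; each column followed the scanner log ratio of its array (r of 0.988 to 0.997 with the transgenic extract in Cy5 and -0.999 to -0.982 with it in Cy3, so the sign is transgenic over control), with a median of 0. Here intensities were background-corrected with normexp (offset 50) and loess-normalized in limma 3.58.1 (R 4.3.3). Control spots had weight 0, and outlier-marked spots were dropped. Ratios were turned to transgenic over control on the log2 scale and each pair took the mean of its 2 arrays.

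A probe was tested where at least 4 of 8 extracts were well above background on both arrays and at least 3 of 4 pairs had a value (2 pairs where 1 pair was left out). One fit held the 16 pairs, with 4 means and 4 differences. Control levels were compared after Aquantile normalization, with colony as a term. Significance was a Benjamini-Hochberg adjusted p under 0.05 over all probes tested. Of 41174 probes, 23366 were named by accession, 6739 by symbol, 2918 by synonym, and 8151 stayed unnamed. The fits were tested on simulated data. The number of arrays limits the precision.

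Detection is reported for all member probes, and ratios and levels mainly for each gene's brightest. Values of the dimmer probes are given in some comparisons and not in others. From every other list the text may name up to 4 called genes per comparison, otherwise the 2 with the smallest p. The likeness rule names 8 non-members. One gene that the rule names is not reported here. Members and lists were chosen with earlier results of these data known. Alternatives covered background correction, centring, filters, outlier marks, the deposited ratios, scan session, replicate number and each pair left out. Those that leave out the misplaced array or the scan session with many outlier marks were chosen after seeing the data.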

Additional observations from a re-analysis of the deposited data

Results flagged for a closer look

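Of 67 groups of member values checked for a sample far from the others, 4 had one, where chance alone flags about 1 in 20 groups (3.4 here). In the first 3, the sample belongs to SODmn pair 3, which includes the misplaced array. For Mag probe A_52_P375021 the log2 ratio of SODmn pair 3 was -0.0072, against 0.092 to 0.11 in the other pairs. For Mag probe A_51_P435428 control motor neuron extract SODmn 3 had a level of 7.99, against 10.18 to 10.74. For Mobp probe A_51_P291224 the same extract had 7.18, against 6.32 to 6.54. The last was Cnp, where control glia extract TAUgl 1 had 6.51, against 7.83 to 8.61 in the other glia extracts; this pair had many outlier-marked spots.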

How the results depend on the processing

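Of 1479 alternative values of member probes in the transgenic comparisons, 0 were called and 141 had another sign than the value reported; in the level comparison 16 of 355 had another sign. Counts of called probes against 0 were 1 in SODmn, 1 in TAUmn and 1 in TAUgl with the scanner software's ratios, and likewise 1, 1 and 1 with the authors' deposited values. They were 2 in SODgl and 1 in TAUmn with an offset of 10, 1 in SODmn with no filter, 2 in TAUmn with all 8 extracts above background, 6 in SODgl with scan as a random block, and 1 in TAUgl without the pairs of the outlier-marked scan. With each pair left out the counts were 0 to 1 in SODmn (1 without pair 2 or 4), 0 to 0 in SODgl, 0 to 7 in TAUmn (7 without pair 3) and 0 to 1 in TAUgl (1 without pair 1 or 3). For the differences they were 0 to 0 (SOD1-G93A, motor neurons minus glia), 0 to 1 (TAU-P301L, 1 without TAUgl 1), 0 to 4 (SOD1-G93A minus TAU-P301L, motor neurons; 4 without SODmn 2, 1 without TAUmn 3) and 0 to 1 (glia, 1 without TAUgl 2). The level comparison called 6196 probes, 72.2% of them higher in motor neurons. It called 10418 with no filter (58.8% higher), 187 with all extracts above background (43.3% higher), where fewer probes were tested, 680 in SOD1-G93A littermates alone (50.6% higher) and 2424 in TAU-P301L littermates alone (83.1% higher), where fewer extracts were used. Without the pairs of the outlier-marked scan 61.9% of calls were higher. Leaving out single pairs gave 5161 to 7119. Of the level values, Mag ranged from -2.22 to -0.84, Mbp A_51_P349205 from -1.34 to -0.025, Mbp A_52_P329451 from -0.98 to -0.41 and Mobp A_52_P384465 from -1.43 to -0.34. Same-numbered pairs had deviations correlating between -0.165 and 0.308, not all over 0.1, so the numbers were not taken as pairing the samples. All 4 were above 0 for TAU-P301L motor neurons minus glia, and 3 of 4 pairs there correlated best with their own number, against 1, 0 and 1 in the other differences. With a replicate block the 4 differences had 0 calls and the level comparison 5396. Where not given, the cause was not tested. Mog and most Ugt8a extracts were too close to background to compare.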
